A study of Mus musculus with 48 samples.

Results

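C/EBPα (gene Cebpa) and HNF4α (gene Hnf4a) are transcription factors of hepatocytes. Their binding in mouse liver at embryonic day 18.5 (E18.5) was compared from 4 of the 48 samples of the series, 2 replicate peak lists of chromatin immunoprecipitation with sequencing (ChIP-seq) for C/EBPα and 2 for HNF4α. All 4 came from wild-type livers of F1 mice (C57Bl6/CBA), untreated, and the labels name 2 antibody vendors for HNF4α without saying which list used which. A region of a factor was a merged stretch of overlapping peaks that held a peak of each replicate. There were 65021 C/EBPα regions and 18359 HNF4α regions. Merged across the factors they gave 5826 regions with both, 59099 with C/EBPα alone and 12509 with HNF4α alone, 77434 regions in all. Genes were assigned to these classes by regions within 5 kb of their transcription start site (TSS).

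The classes were then set beside RNA from 3 livers with Cebpa deleted, 2 livers with Hnf4a deleted and 3 wild-type (WT) livers of the same strain. In the knockouts (KO), labelled C/EBPa lox/lox / Alfp-Cre and HNF4a lox/lox / Alfp-Cre, Cre recombinase driven by the Alfp promoter cuts out a gene flanked by loxP sites in the liver lineage. The labels give the age of all RNA samples as 60 days postnatal, whereas the text of the series gives E18.5. Afp, the fetal plasma protein that adult liver nearly lacks, was at 499143 to 706964 normalized reads in the 3 WT libraries.

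C/EBPα binds DNA as a dimer through a basic leucine zipper and HNF4α as a homodimer of nuclear receptors. Both are known in hepatocytes for driving genes of plasma proteins, amino acid and glucose metabolism, bile acids and detoxification. C/EBPα also acts outside the hepatocyte, where it is needed for the granulocyte lineage, and the fetal liver is a site of blood formation.

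The HNF4α replicates at E18.5 agreed poorly. The HNF4α lists held 53278 and 41199 peaks, and 35.6% of the first overlapped the second, against 46.0% of the second that overlapped the first. The C/EBPα lists held 108853 and 70171 peaks, of which 60.8% and 94.0% overlapped the other replicate. The shared fraction of covered bases (Jaccard index) was 0.515 between the C/EBPα replicates and 0.18 between the HNF4α replicates. Between HNF4α replicates of E15.5, P14 and P60 it lay between 0.529 and 0.637, while the P0.5 lists of HNF4α were identical and were counted as 1 list. Each E18.5 HNF4α list was still closer to the other than to any of the remaining lists, and its highest index with a C/EBPα list was 0.0671 and 0.0637. The peaks that overlapped numbered 18974 and 18958, which is about the number of HNF4α regions.

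The lists of the 2 factors differed in where their peaks lay. Within 5 kb of a TSS were 25.2% and 26.2% of the C/EBPα peaks, against 12.4% and 12.7% of the HNF4α peaks. The median distance to the nearest TSS was 17.3 and 16.5 kb for C/EBPα, against 34.9 and 34.7 kb for HNF4α. Chromosome X held 2.21% and 2.1% of the C/EBPα peaks, against 7.46% and 8.23% of the HNF4α peaks. The lists of the factors did not overlap in any of these measures, with an exact two-sided permutation p of 0.333 for each, the smallest that 2 lists against 2 allow. Median peak widths did overlap, at 340 and 364 bp for C/EBPα and 357 and 337 bp for HNF4α (exact permutation p = 0.667). HNF4α lists of the other stages had 28.6% to 34.5% of their peaks within 5 kb of a TSS and 1.65% to 2.69% on chromosome X, so both E18.5 HNF4α lists lay outside the range of their own factor. The part of list quality in this was not tested.

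**Figure D1:**
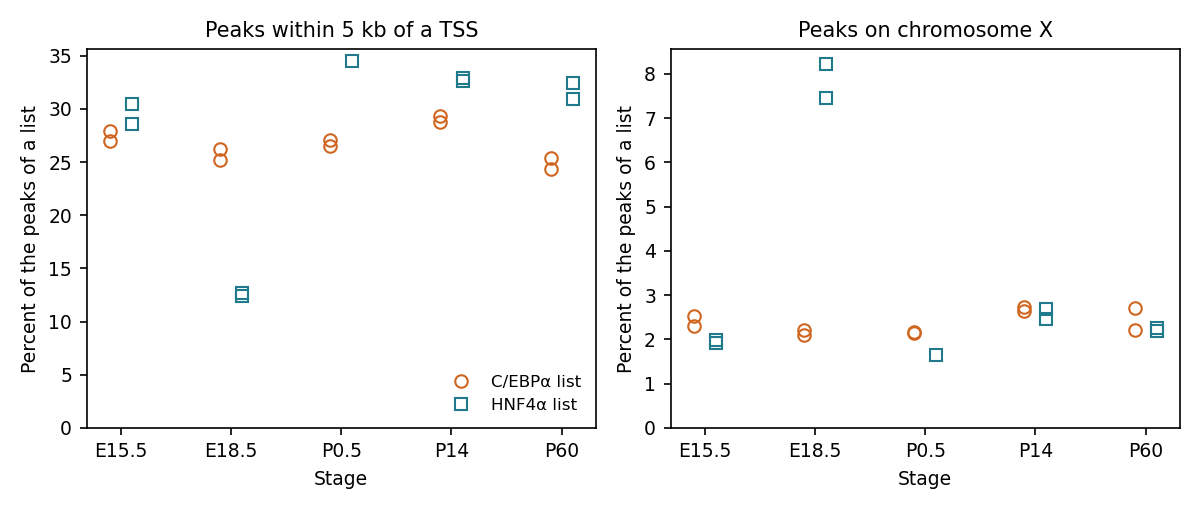
Percent of the peaks of each list within 5 kb of a TSS (left) and on chromosome X (right), by stage, with 1 point per list for C/EBPα (circles) and HNF4α (squares). The E18.5 HNF4α lists sit at 12.4% and 12.7% near a TSS and at 7.46% and 8.23% on chromosome X, apart from the other HNF4α lists.

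Of the C/EBPα regions, 5922 (9.11%) overlapped an HNF4α region, and of the HNF4α regions, 5850 (31.9%) overlapped a C/EBPα region. Where they overlapped, the midpoints of the C/EBPα and HNF4α regions lay a median of 66.0 bp apart, and 66.6% of the 5946 overlapping pairs were within 100 bp. Some regions of a single factor held a partner peak that the rule for regions left out. For C/EBPα alone their number came near that of the 5826 regions with both factors. With a peak of either replicate as the rule, 12960 regions held both factors. A peak of either HNF4α replicate lay in 5002 (8.46%) of the C/EBPα-alone regions, and a peak of either C/EBPα replicate in 951 (7.6%) of the HNF4α-alone regions. The share of C/EBPα regions with HNF4α was 55.0% at E15.5, 9.11% at E18.5, 17.9% at P0.5, 40.9% at P14 and 48.1% at P60. The share of HNF4α regions with C/EBPα was 15.8% at E15.5, 31.9% at E18.5, 70.3% at P0.5, 57.9% at P14 and 55.8% at P60. At E18.5 the share of HNF4α regions was 18.3% or 17.4% with all peaks of a single HNF4α list, without replicate 1 or 2, and 66.7% for HNF4α regions with an HNF4α peak at another stage. The number of C/EBPα regions was 10419, 65021, 94619, 34737 and 44217 from E15.5 to P60, and that of HNF4α regions 35764, 18359, 21262, 23800 and 36322. The part of these numbers in the shares was not tested.

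Regions with both factors and regions with C/EBPα alone lay at like distances from genes, and regions with HNF4α alone lay farther away. Within 5 kb of a TSS were 28.1% of the regions with both factors, 25.9% of those with C/EBPα alone and 11.5% of those with HNF4α alone. Their median distances to a TSS were 13.8, 16.8 and 39.0 kb in the same order. Regions with both factors were the widest, with a median of 609 bp, against 434 bp for C/EBPα alone and 516 bp for HNF4α alone. A region with both factors is by construction the union of overlapping regions of each. Chromosome X held 0.961% of the regions with both factors, 2.17% of those with C/EBPα alone and 8.49% of those with HNF4α alone.

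**Figure D2:**
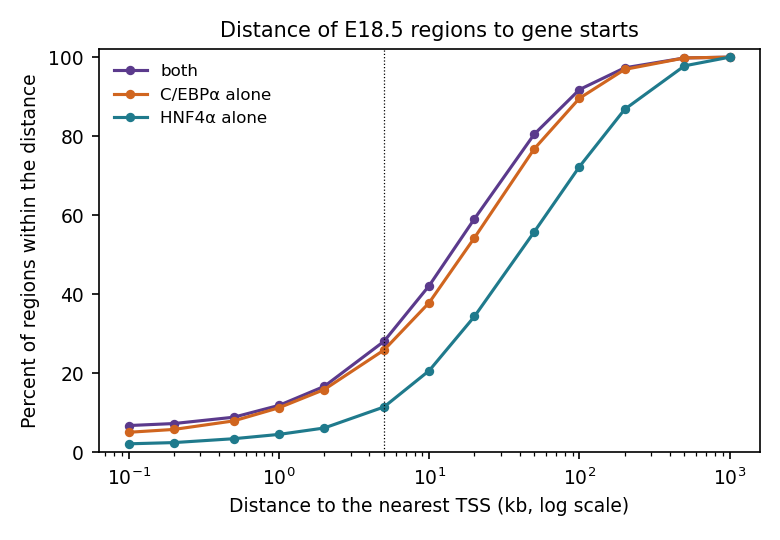
Cumulative percent of E18.5 regions (vertical axis) within a distance of the nearest TSS (horizontal axis, kb, log scale) for regions with both factors, C/EBPα alone and HNF4α alone, with a dotted line at 5 kb. The curves for both factors and C/EBPα alone run close together, at 28.1% and 25.9% at 5 kb, and the curve for HNF4α alone runs below them, at 11.5%.

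Peaks of the other stages divided the HNF4α-alone regions further. Only 2911 (23.3%) of them held an HNF4α peak in any of the 7 distinct HNF4α lists of other stages, against 5816 (99.8%) of the regions with both factors. The HNF4α-alone regions seen again at another stage lay nearer to genes than the rest, with 32.5% within 5 kb of a TSS, a median distance of 11.8 kb and 4.57% on chromosome X. The 9598 not seen again had 5.2% within 5 kb of a TSS, a median distance of 54.9 kb and 9.68% on chromosome X. Of the C/EBPα-alone regions, 58064 (98.2%) held a C/EBPα peak at another stage. An HNF4α peak of another stage lay in 27231 (46.1%) of them, although no HNF4α region did at E18.5. In 6270 (10.6%) the HNF4α peak was present in every list of both E15.5 and P0.5, the stages before and after. Regions with both factors held an HNF4α peak in every one of the 7 lists in 4267 cases (73.2%) and a C/EBPα peak in every one of the 8 C/EBPα lists of other stages in 1856 (31.9%).

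The C/EBPα lists of E15.5, the ones with the fewest peaks, covered 46.2% and 38.4% of the regions with both factors. They covered 22.0% and 16.2% of the C/EBPα-alone regions and 0.5% and 0.6% of the HNF4α-alone regions. Regions that both factors shared at E18.5 were thus more often in the E15.5 C/EBPα lists than regions of C/EBPα alone, in each of the 2 lists. The same order held at P14 (80.1% and 82.0% against 47.8% and 53.0%) and at P60 (73.5% and 88.6% against 47.0% and 69.3%). Regions with both factors were also wider, at a median of 609 bp against 434 bp. The part of width was not tested.

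**Figure D3:**
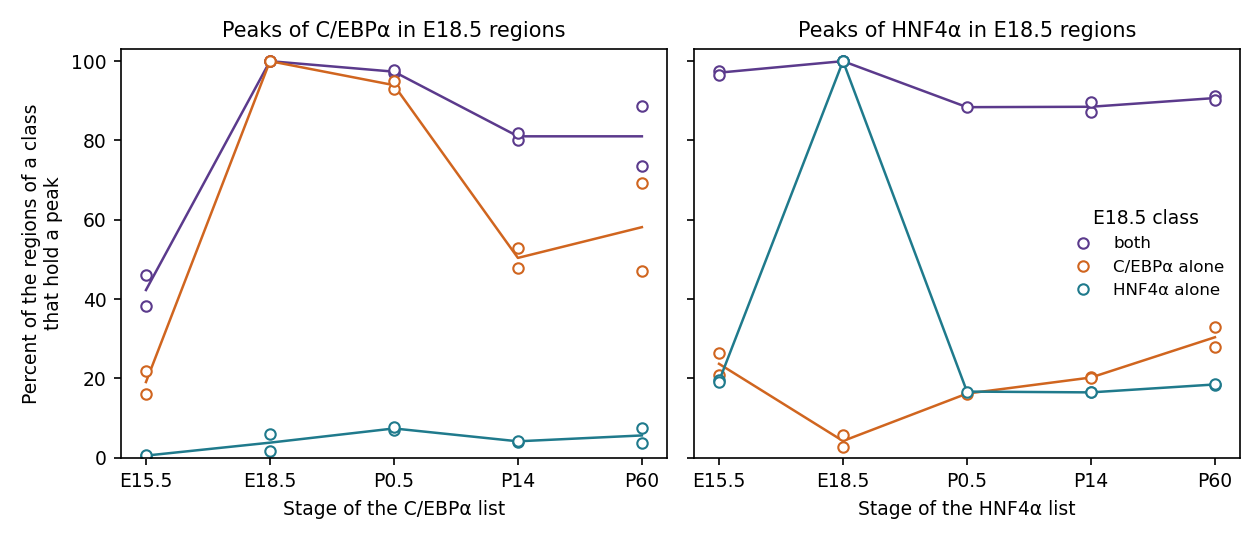
Percent of the E18.5 regions of each class (vertical axis) that held a C/EBPα peak (left) or an HNF4α peak (right) in the lists of each stage, with 1 point per list and lines through the means. At E18.5 the values follow from how the classes were made. At the other stages regions with both factors stay high for HNF4α, while HNF4α-alone regions fall below 20% in each list.

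Cebpa itself had a region with both factors 1712 bp upstream of its TSS, at chr7:35901473-35902600 (mm9), and a C/EBPα-alone region over the TSS. Hnf4a had no HNF4α region within 5 kb of the TSS given in the deposited table. It had C/EBPα-alone regions 913 and 3690 bp downstream, and only 1 start per gene was used. Cebpa had 322, 419 and 998 normalized reads in livers without C/EBPα, 3886 and 4500 in the HNF4α knockout, and 9999, 9594 and 5511 in WT. It was 15.7-fold lower in the C/EBPα knockout than in WT (log2 change −3.98 ± 0.44 SE, adjusted p = 0.000413) and did not pass the test in the HNF4α knockout (−0.95 ± 0.49, adjusted p = 0.299). Hnf4a was at 1238 and 2444 in the HNF4α knockout, 2492, 2530 and 4510 in the C/EBPα knockout, and 9098, 4948 and 6718 in WT. It was 3.86-fold lower in the HNF4α knockout (−1.95 ± 0.45, adjusted p = 0.033), with 1 of its libraries close to the C/EBPα knockout values, and did not pass in the C/EBPα knockout (−1.14 ± 0.4, adjusted p = 0.188). Any reads from an undeleted part of a gene, or from cells without Cre, would count in these values, and their part was not tested.

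Of the 30 liver transcription factors listed, 8 had a region with both factors within 5 kb of the TSS, among them Cebpa, Cebpb, Nr1h4, Nr1i2, Nr5a2, Nr0b2 and Ppara. These include the bile acid receptor FXR (Nr1h4), the xenobiotic receptor PXR (Nr1i2) and the fatty acid receptor PPARα (Ppara). Another 17 had C/EBPα regions alone: Cebpd, Cebpg, Hnf4a, Foxa1, Foxa2, Foxa3, Onecut1, Onecut2, Nr1h3, Nr2f2, Gata4, Prox1, Tbx3, Creb3l3, Esrra, Hhex and Xbp1. Rxra, the partner of many nuclear receptors, had HNF4α-alone regions only, the nearest 69 bp upstream of its TSS. Nr1i3 and Gata6 had regions of each factor that did not overlap, and Hnf4g had none. Over all genes tested, 7.93% had a region with both factors and 42.3% had C/EBPα alone. Nr1h4 was at 133, 100 and 140 in the C/EBPα knockout, 93 and 166 in the HNF4α knockout, and 1343, 1285 and 895 in WT. Both knockouts lay below all WT libraries, at log2 changes of −3.22 ± 0.36 (adjusted p = 0.000476) and −3.21 ± 0.4 (adjusted p = 0.00124). Most of the listed factors did not pass the test. Of the 30, 4 were lower and 1 higher in the C/EBPα knockout, and 7 were lower in the HNF4α knockout. Lower were 2.86% and 3.17% of all genes tested. The median log2 changes of the 30 were −0.51 and −0.32.

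Promoters of the 6 genes below show the letters around the starts of pathway genes in each class. They are RefSeq promoters of build GRCm38.p6, 250 bases before to 50 after the start, chosen as genes with the TSS inside a region of the class, a motif match and the largest change in a knockout. The motifs searched were TTGCNNAA for C/EBP and CAAAGNNCA for HNF4, on both strands, and matches are in capitals. Of all 32851 promoters in the table, 10.8% held the first and 6.36% the second. A comparison of these shares between the classes was void, since only 67.1% of the protein-coding genes, and 68.7% to 72.4% in the classes, had a promoter in the table. The regions are in mm9, so whether a match lies inside a peak was not tested.

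Cyp2a4 (both, chr7:26306942-26307241, + strand): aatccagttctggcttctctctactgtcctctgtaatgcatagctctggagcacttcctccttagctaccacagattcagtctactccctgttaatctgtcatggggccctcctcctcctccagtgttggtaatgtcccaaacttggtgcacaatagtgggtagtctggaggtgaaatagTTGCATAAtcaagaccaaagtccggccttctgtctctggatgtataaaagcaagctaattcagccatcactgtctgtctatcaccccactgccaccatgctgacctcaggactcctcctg
Cyp2c37 (both, chr19:39992174-39992473, + strand): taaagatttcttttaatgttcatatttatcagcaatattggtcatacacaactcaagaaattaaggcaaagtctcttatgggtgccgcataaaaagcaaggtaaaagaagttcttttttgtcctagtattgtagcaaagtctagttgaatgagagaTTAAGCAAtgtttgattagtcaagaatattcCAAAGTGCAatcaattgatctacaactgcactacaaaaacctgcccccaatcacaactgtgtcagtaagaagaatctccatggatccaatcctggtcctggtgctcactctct
Saa4 (C/EBPα alone, chr7:46732554-46732853, − strand): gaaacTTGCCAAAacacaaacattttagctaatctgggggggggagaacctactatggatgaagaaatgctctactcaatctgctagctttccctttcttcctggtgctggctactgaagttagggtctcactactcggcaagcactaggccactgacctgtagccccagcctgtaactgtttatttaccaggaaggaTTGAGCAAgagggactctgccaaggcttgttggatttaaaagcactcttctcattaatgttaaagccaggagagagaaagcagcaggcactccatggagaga
Cyp3a11 (C/EBPα alone, chr5:145879805-145880104, − strand): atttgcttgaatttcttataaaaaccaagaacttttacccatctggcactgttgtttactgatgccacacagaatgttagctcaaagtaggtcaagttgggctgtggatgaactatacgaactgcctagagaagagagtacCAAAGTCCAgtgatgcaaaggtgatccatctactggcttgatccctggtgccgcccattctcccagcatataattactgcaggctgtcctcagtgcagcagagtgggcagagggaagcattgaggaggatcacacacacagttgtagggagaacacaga
Cyp2d9 (HNF4α alone, chr15:82452127-82452426, + strand): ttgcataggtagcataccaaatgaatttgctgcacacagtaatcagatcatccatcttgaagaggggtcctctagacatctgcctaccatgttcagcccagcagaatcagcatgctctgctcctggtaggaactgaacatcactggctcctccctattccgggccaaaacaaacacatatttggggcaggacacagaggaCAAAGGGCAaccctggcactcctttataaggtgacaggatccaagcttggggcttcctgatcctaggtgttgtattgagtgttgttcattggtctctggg
F7 (HNF4α alone, chr8:13025784-13026083, + strand): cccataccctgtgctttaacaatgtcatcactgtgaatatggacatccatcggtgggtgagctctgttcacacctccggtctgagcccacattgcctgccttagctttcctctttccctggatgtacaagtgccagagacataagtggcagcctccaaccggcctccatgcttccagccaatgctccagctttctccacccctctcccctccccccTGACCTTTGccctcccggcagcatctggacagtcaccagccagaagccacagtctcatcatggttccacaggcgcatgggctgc

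The classes in these lines are those of the region over the TSS, and Cyp3a11, Cyp2d9 and F7 have further regions within 5 kb. Cyp2c37 held a C/EBP match at position −94 and an HNF4 match at −63 relative to the start. Saa4 held 2 C/EBP matches, at −245 and −52, and Cyp3a11 an HNF4 match at −109 but no C/EBP match. F7, which encodes clotting factor VII, held an HNF4 match at −34 and Cyp2d9 one at −50.

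Of the 37583 genes in the table, 1902 had a region with both factors within 5 kb, 11056 had C/EBPα regions alone and 874 had HNF4α regions alone. Another 626 had separate regions of each factor and 23125 had none. The genes with both factors most often fell in the knockouts. Across all 17771 genes tested, 509 (2.86%) were lower and 157 (0.883%) higher in the C/EBPα knockout than in WT, and 563 (3.17%) lower and 273 (1.54%) higher in the HNF4α knockout. Among genes with both factors, 192 of 1409 tested (13.6%) were lower in the C/EBPα knockout and 227 (16.1%) in the HNF4α knockout, with median log2 changes of −0.39 and −0.55, beside 0.03 and 0.02 over all genes. Of the same genes 8 (0.568%) were higher in the C/EBPα knockout and 7 (0.497%) in the HNF4α knockout.

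Genes with C/EBPα alone were near the background of 2.86% and 3.17%. In the C/EBPα knockout 226 of 7525 (3.0%) were lower, and in the HNF4α knockout 211 (2.8%). Those with an HNF4α peak of another stage in a nearby region were lower in 187 of 4743 cases (3.94%) in each knockout. Those without were lower in 39 (1.4%) and 24 (0.863%) of 2782. The median WT level was 426 normalized reads for the genes with such a peak and 264 for those without. Genes with HNF4α alone were lower in 4 of 382 cases (1.05%) in the C/EBPα knockout and in 12 (3.14%) in the HNF4α knockout. All 12 had an HNF4α region seen again at another stage, among 291 tested genes (4.12%). Of the 91 tested genes whose HNF4α-alone regions were seen at E18.5 only, limma called 0 in the HNF4α knockout. Of these genes 9 had an unadjusted limma p under 0.05. The 91 genes had a median WT level of 41 normalized reads, against 263 for the 291. They were 22.1% of the genes of their kind, against 62.9% tested for the others, and the part of level was not tested. Genes with separate regions of each factor were lower in 23 of 485 cases (4.74%) in the C/EBPα knockout and in 41 (8.45%) in the HNF4α knockout. Genes with no region were lower in 64 (0.803%) and 72 (0.903%) of 7970.

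Between the knockouts, with all 17771 genes at 332 (1.87%) lower and 287 (1.61%) higher in the C/EBPα knockout than in the HNF4α knockout, 45 (3.19%) of the genes with both factors were lower and 82 (5.82%) higher. The classes also differ in level, which a test sees more readily when it is high. The median WT level was 621 normalized reads for genes with both factors, 360 with C/EBPα alone, 194 with HNF4α alone, 498 with separate regions and 117 with none. The part of level in these shares was not tested. 

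These counts moved by over 1.5 times with single libraries. Without WT replicate 1, 104 genes with both factors (7.46%) were lower in the C/EBPα knockout, beside 1.45% of all genes, and 132 (9.46%) in the HNF4α knockout, beside 1.63%. Without HNF4α knockout replicate 1 or 2, 101 (7.23%) or 130 (9.27%) were lower in the HNF4α knockout, beside 1.22% or 1.76%. Genes with C/EBPα alone that were lower in the C/EBPα knockout numbered 146 without C/EBPα knockout replicate 1, and 116 or 141 without replicate 1 or 2 of WT. Those lower in the HNF4α knockout numbered 67 and 109 without its replicate 1 and 2, 99 and 125 without WT replicate 1 and 3, and 319 without C/EBPα knockout replicate 3, which enters through the shared estimate of spread. The 12 genes with HNF4α alone became 5 without either HNF4α knockout replicate, 6 without WT replicate 1, and 19 and 23 without C/EBPα knockout replicate 2 and 3.

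Summed markers of several other cell types differed between the groups, not all in the same direction. HNF4α knockout replicate 1 had a summed level of 662742 for 12 skeletal muscle markers, against 264 in the other HNF4α knockout library, 114 to 1462 in the C/EBPα knockout and 80 to 200 in WT. Summed markers of bile duct cells were at 9599 to 13924 in the C/EBPα knockout, 3337 and 3627 in the HNF4α knockout and 1944 to 3178 in WT. Summed markers of stellate cells and fibroblasts were at 21526 to 28885 in the C/EBPα knockout, 105461 and 45912 in the HNF4α knockout and 16430 to 24562 in WT. Those of macrophages were at 12933 to 27045 in the C/EBPα knockout, 39285 and 46541 in the HNF4α knockout and 21755 to 24955 in WT. Both HNF4α knockout libraries lay above WT also for erythroid markers, at 1211428 to 2352678 in the C/EBPα knockout, 6968302 and 4073768 in the HNF4α knockout and 1049938 to 3992833 in WT. The same held for markers of neutrophils and their precursors, at 34168 to 96310 in the C/EBPα knockout, 112593 and 102241 in the HNF4α knockout and 45383 to 67857 in WT. For erythroid markers the lower HNF4α knockout library was close to the highest WT library. Endothelial markers were at 7818 to 11610 in the C/EBPα knockout, 15361 and 14589 in the HNF4α knockout and 9691 to 13775 in WT. Lymphocyte markers lay below WT, at 750 to 995 in the C/EBPα knockout, 922 and 1286 in the HNF4α knockout and 1358 to 1632 in WT. Gene by gene, limma called 0 erythroid, endothelial, lymphocyte or neutrophil markers in either knockout. Of 8 bile duct markers tested, 4 were higher in the C/EBPα knockout. In the HNF4α knockout 1 of 12 macrophage, 3 of 11 stellate cell and fibroblast and 1 of 11 skeletal muscle markers tested were higher. The part of these other cell types in the sums was not tested. The part of these cells in the shares was not tested, and fewer cells of a type cannot be told apart from less RNA per cell. Scaling to library totals turned the split over all genes in the C/EBPα knockout to 324 lower and 474 higher (40.6% lower, against 76.4% in the fit above).

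**Figure D4:**
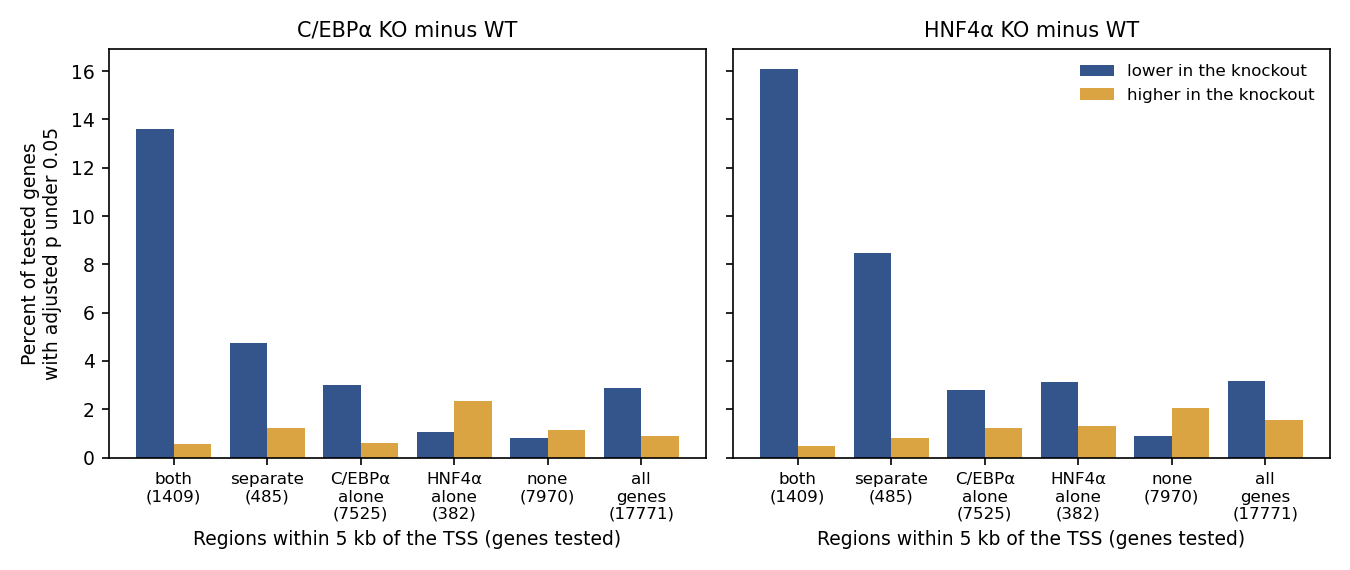
Percent of tested genes of each class (vertical axis) with an adjusted p under 0.05, lower (blue) or higher (yellow) in the C/EBPα knockout (left) and the HNF4α knockout (right) than in WT, with the number of genes tested under each class. Genes with both factors reach 13.6% and 16.1% lower, and all genes 2.86% and 3.17%.

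Of 302 genes in 13 lists of liver function, 41.7% had a region with both factors, 43.7% had C/EBPα alone and 2.65% HNF4α alone. Over all genes tested these shares were 7.93%, 42.3% and 2.15%. For 85 markers of other cell types they were 4.71%, 24.7% and 4.71%, and for 40 cell cycle and housekeeping genes 15.0%, 50.0% and 5.0%. Urea cycle and amino acid breakdown had 21 of 36 genes with both factors, among them Arg1 (arginase), Tat and Fah (tyrosine breakdown) and Mat1a (S-adenosylmethionine synthesis). Of its 36 genes 23 were lower in the C/EBPα knockout and 17 in the HNF4α knockout, beside 2.86% and 3.17% of all genes. Plasma carriers and inhibitors had 14 of 20 genes with both factors, including Alb, Afp, Ttr and Trf, and every one of the 20 had a C/EBPα region. Of these 20 genes, 6 were lower and 1 higher in the C/EBPα knockout, and 1 lower and 1 higher in the HNF4α knockout. Apolipoproteins and lipoprotein metabolism had 12 of 24 genes with both factors, and 7 and 3 of the 24 were lower in the C/EBPα and HNF4α knockouts. Blood coagulation had 14 of 22, including the genes of prothrombin (F2) and of clotting factors IX, X, XI and XII, and 12 and 9 of the 22 were lower in the C/EBPα and HNF4α knockouts. Glucose and glycogen metabolism had 10 of 20, including G6pc and Pck1 of gluconeogenesis, and 14 and 8 were lower.

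Cytochrome P450 and xenobiotic genes had 18 of 37 with both factors, and of 35 tested 21 were lower in the C/EBPα knockout and 26 in the HNF4α knockout. All counts of lower genes in these lists stand beside 2.86% and 3.17% of all genes in the C/EBPα and HNF4α knockouts. Bile acid genes had 8 of 20 with both factors, and 14 and 17 were lower. Cyp7a1, the rate-limiting enzyme of bile acid synthesis, had C/EBPα alone. It was 11.6-fold lower in the C/EBPα knockout (log2 change −3.53 ± 0.42, adjusted p = 0.000715) and 24.0-fold lower in the HNF4α knockout (−4.59 ± 0.47, adjusted p = 0.000489). Cholesterol synthesis and fatty acid synthesis were bound mostly by C/EBPα alone, in 15 of 18 measured genes each, with both factors at 2 genes each. In these lists 1 and 4 genes were lower in the C/EBPα knockout and 2 and 3 in the HNF4α knockout. All 8 markers of neutrophils and their precursors had a C/EBPα region within 5 kb. It lay over the TSS for Elane, Ngp, S100a8, S100a9, Ltf and Camp. The share with such a region was 36.1% over all genes in the table and 53.0% over all genes tested. It lay near 3 of 13 erythroid, 5 of 12 endothelial, 4 of 12 macrophage and 1 of 8 lymphocyte markers. For bile duct cells, stellate cells with fibroblasts, and skeletal muscle, the counts were 2 of 9, 3 of 11 and 1 of 12. Of the neutrophil markers only Mpo had a region with both factors.

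Among the pathway genes with both factors, Cyp3a25 had the largest change in the C/EBPα knockout on the log2(value + 1) scale. Cyp3a25 is a cytochrome P450 of the family that clears steroids and drugs. It was at 5, 0 and 11 normalized reads in the C/EBPα knockout, 7 and 19 in the HNF4α knockout, and 1616, 1188 and 1093 in WT. All knockout libraries lay far below WT. The region with both factors lay over its TSS (chr5:146820951-146821561, mm9) and held an HNF4α peak in all 7 lists of other stages. On the log2(value + 1) scale Cyp3a25 fell by 8.27 ± 0.82 in the C/EBPα knockout (adjusted p = 0.000213) and by 6.66 ± 0.92 in the HNF4α knockout (adjusted p = 0.00208). The order depended on the added value. With log2(value + 10) the changes in the C/EBPα knockout were −6.46 for Cyp3a25 and −4.74 for Cyp2a4, against −7.76 for Serpina3k and −6.92 for Hpd. Serpina3k, a secreted protease inhibitor, was at 94, 31 and 219 in the C/EBPα knockout, 104 and 60 in the HNF4α knockout, and 53144, 44680 and 4142 in WT. WT replicate 3 was the lowest of the WT libraries, yet above every knockout library. Serpina3k had a region with both factors 992 bp upstream, and fell by 7.94 ± 0.91 in the C/EBPα knockout (adjusted p = 0.000565), with a log2 change of −8.06 ± 1.02 in the HNF4α knockout (adjusted p = 0.00127).

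Cyp2a4, a steroid-hydroxylating cytochrome P450, was at 3, 0 and 0 in the C/EBPα knockout, 25 and 31 in the HNF4α knockout, and 315, 192 and 369 in WT, and it shares long stretches of sequence with Cyp2a5. It was lower in the C/EBPα knockout than in the HNF4α knockout (log2 change −4.18 ± 0.78, adjusted p = 0.0155), and its promoter is printed above. Hpd, which breaks down tyrosine, had 23, 30 and 18 normalized reads in the C/EBPα knockout, 1014 and 716 in the HNF4α knockout, and 3879, 5179 and 3219 in WT, with no overlap between the 3 groups. It fell by 7.38 ± 0.34 in the C/EBPα knockout (adjusted p = 4.08e-06) and by 2.23 ± 0.38 in the HNF4α knockout (adjusted p = 0.00713), and the direct difference was −5.14 ± 0.38 (adjusted p = 0.000598). Cyp3a41a had 2 regions with both factors, with log2 changes of −7.07 ± 0.5 in the C/EBPα knockout (adjusted p = 2.96e-05) and −6.03 ± 0.56 in the HNF4α knockout (adjusted p = 0.000336). Genes of the Cyp2a, Cyp2c, Cyp2d, Cyp3a, Serpina3 and Saa families have near-identical copies, so the split of reads among them is uncertain.

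Other genes with both factors were lower in the HNF4α knockout only, or more so. Baat, which conjugates bile acids to amino acids, was at 502, 501 and 1778 in the C/EBPα knockout, 10 and 8 in the HNF4α knockout, and 1010, 581 and 894 in WT. The C/EBPα knockout overlapped WT and the HNF4α knockout lay far below both. It was 81.2-fold lower in the HNF4α knockout than in WT (−6.34 ± 0.56, adjusted p = 0.00026), and the log2 difference between the C/EBPα and HNF4α knockouts was 6.27 ± 0.56 (adjusted p = 0.000761). Its region with both factors lay 3869 bp upstream and 4 C/EBPα-alone regions lay nearer. Mbl2, a mannose-binding lectin of complement, had 113, 132 and 225 normalized reads in the C/EBPα knockout, 16 and 14 in the HNF4α knockout, and 878, 1640 and 1362 in WT. It was higher in the C/EBPα knockout than in the HNF4α knockout by 3.24 ± 0.45 (adjusted p = 0.00375). Cyp4a10, a fatty acid hydroxylase, was likewise higher, by 3.8 ± 0.86 (adjusted p = 0.0376), with 66, 34 and 280 in the C/EBPα knockout, 12 and 2 in the HNF4α knockout, and 1156, 1027 and 2279 in WT.

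Genes with C/EBPα alone also held large changes. Cps1, the first enzyme of the urea cycle, was at 185, 87 and 625 in the C/EBPα knockout, 23796 and 22966 in the HNF4α knockout, and 42271, 35402 and 52397 in WT. It fell by 7.62 ± 0.59 in the C/EBPα knockout (adjusted p = 4.54e-05), with no call in the HNF4α knockout (−0.87 ± 0.66, adjusted p = 0.474), and the knockouts differed by −6.75 ± 0.66 (adjusted p = 0.000912). A C/EBPα-alone region of 629 bp lay over its TSS and held an HNF4α peak in 6 of the 7 HNF4α lists of other stages. Saa4, a serum amyloid protein, was at 1, 5 and 6 in the C/EBPα knockout, 155 and 186 in the HNF4α knockout, and 862, 803 and 798 in WT, with log2 changes of −7.55 ± 0.53 (adjusted p = 2.75e-05) and −2.27 ± 0.59 (adjusted p = 0.0546). Fetub, a plasma protein of the fetuin family, was at 157, 30 and 1626 in the C/EBPα knockout, 1180 and 1841 in the HNF4α knockout, and 25313, 34401 and 9698 in WT. It fell by 6.67 ± 1.09 in the C/EBPα knockout (adjusted p = 0.00531), a call that ended without both WT replicate 3 and C/EBPα knockout replicate 1 (adjusted p = 0.0824). Cyp2a5 fell by 6.6 ± 0.76 in the C/EBPα knockout (adjusted p = 0.000561).

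Serpina6, the carrier of glucocorticoids in plasma, rose. Its libraries held 54960, 32605 and 21688 in the C/EBPα knockout, 4231 and 7276 in the HNF4α knockout, and 173, 166 and 412 in WT, with log2 changes of 7.21 ± 0.47 (adjusted p = 2.48e-05) and 4.6 ± 0.52 (adjusted p = 0.000739). Hamp encodes hepcidin, which lowers iron uptake. Its level was 5, 8 and 45 in the C/EBPα knockout, 1924 and 2780 in the HNF4α knockout, and 8, 72 and 46 in WT. It was 73.7-fold higher in the HNF4α knockout than in WT (6.2 ± 0.99, adjusted p = 0.00454), and the C/EBPα knockout overlapped WT. Cyp2e1, which oxidizes ethanol and other small molecules, had 110, 306 and 268 normalized reads in the C/EBPα knockout, 117 and 92 in the HNF4α knockout, and 12492, 10077 and 5381 in WT. The region over its TSS had C/EBPα alone at E18.5 and an HNF4α peak in all 7 HNF4α lists of other stages. Cyp2e1 fell by 6.39 ± 0.5 in the HNF4α knockout (adjusted p = 0.000171) and its log2 change was −5.39 ± 0.45 in the C/EBPα knockout (adjusted p = 7.07e-05). Cyp2c54, the bile acid and drug uptake carrier Slco1b2 and the complement component C8a had log2 changes of −7.28 ± 0.82, −5.94 ± 0.57 and −4.94 ± 0.56 in the HNF4α knockout (adjusted p = 0.000705, 0.000345 and 0.000705). The region over the TSS of Cyp2c54 held an HNF4α peak in 5 of the 7 HNF4α lists of other stages. For Slco1b2 the number was 0, and for the regions near C8a it was 1, 0 and 0.

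**Figure D5:**
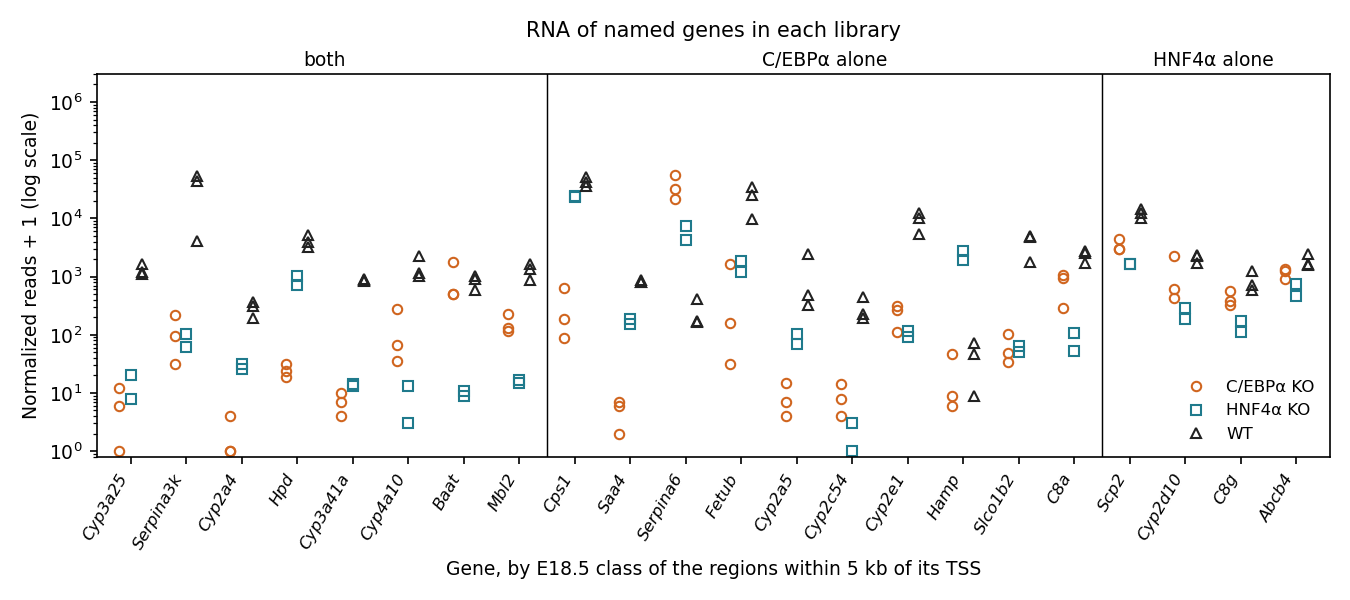
Normalized reads plus 1 (log scale) of the named pathway genes in each RNA library, with 1 point per library for the C/EBPα knockout (circles), the HNF4α knockout (squares) and WT (triangles), grouped by E18.5 class. Serpina6 lies above WT in both knockouts and Hamp in the HNF4α knockout, and the C/EBPα knockout libraries of Baat overlap WT while its HNF4α knockout libraries lie at 10 and 8.

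Of the 8 pathway genes with HNF4α alone, 4 were lower in the HNF4α knockout, beside 3.17% of all genes, and 1 of these in the C/EBPα knockout, beside 2.86%. Scp2, a sterol carrier and thiolase of peroxisomes, was at 2949, 2968 and 4359 in the C/EBPα knockout, 1631 and 1661 in the HNF4α knockout, and 14727, 12605 and 10078 in WT. The 3 groups did not overlap, and the log2 changes were −1.87 ± 0.33 (adjusted p = 0.00785) and −2.9 ± 0.37 (adjusted p = 0.00124) in the C/EBPα and HNF4α knockouts. The first call ended without WT replicate 1 (adjusted p = 0.0637) and without both WT replicate 3 and C/EBPα knockout replicate 1 (adjusted p = 0.0805). Cyp2d10 had 430, 610 and 2287 normalized reads in the C/EBPα knockout, 285 and 189 in the HNF4α knockout, and 2274, 2377 and 1689 in WT. It was 8.97-fold lower in the HNF4α knockout (−3.17 ± 0.6, adjusted p = 0.0117). C8g, a complement component, and Abcb4, the phospholipid pump of bile, were 5.77-fold and 3.17-fold lower in the HNF4α knockout (adjusted p = 0.0074 and 0.0283). The calls of Cyp2d10, C8g and Abcb4 ended without 1 library in 3, 1 and 5 of the fits that left out a library, with adjusted p up to 0.0896, 0.0724 and 0.389. The call of Abcb4 also ended with the replicate block (adjusted p = 0.098), in limma without a trend (adjusted p = 0.0723) and without both WT replicate 3 and C/EBPα knockout replicate 1 (adjusted p = 0.11). The HNF4α-alone regions of Cyp2d10, C8g and Abcb4 held an HNF4α peak in all 7 HNF4α lists of other stages, and that of Scp2 in 1.

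Regions with both factors were mostly single. There were 1719 genes with 1 such region within 5 kb, 168 with 2, 13 with 3 and 2 with 4. The pair with 4 were Gm10800 and Gm10801, neighbouring predicted genes on chromosome 2 at 1 to 80 and 0 to 22 normalized reads across the 8 libraries. They shared the same 4 regions. Each of these held a peak in all 8 C/EBPα lists of other stages and in 6 or 7 of the 7 HNF4α lists. Whether these peaks reflect binding was not tested. Apoc2 and Apoc4, apolipoprotein genes that lie side by side, shared the same 3 regions. Apoc4 was at 636, 923 and 4577 in the C/EBPα knockout, 2776 and 2860 in the HNF4α knockout, and 8045, 13536 and 3731 in WT, which passed in neither knockout (adjusted p = 0.0886 and 0.324). Cyp3a16 had 3 regions and had log2 changes of −5.0 ± 0.33 and −3.68 ± 0.37 in the C/EBPα and HNF4α knockouts (adjusted p = 2.48e-05 and 0.000461).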

How the data were processed

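The submitters' processing notes name BWA, MACS 1.4 and build mm9. The authors deposited 1 list of peak positions per sample with a score of 0 throughout, so no peak height was used and the depth behind a peak is unknown. The deposited RNA table holds reads normalized by the authors with DESeq, as its name says, and rounded, which are treated as a score. Peaks of both replicates were merged by overlaps of at least 1 bp in Python 3.11.15, with code tested on simulated intervals. The table's TSS positions were used. Genes that reached 10 in 2 or more of the 8 libraries were analysed as log2(value + 1) in 1 fit of limma 3.58.1 with a trend, tested on simulated data, with Benjamini-Hochberg adjusted p under 0.05 over 17771 genes. Library totals were 13.4 to 26.0 M normalized reads. A test for counts was not used because the values are normalized. Named genes are the list of liver transcription factors with Cebpa and Hnf4a, the 5 pathway genes per class and knockout with the largest change among those that passed, the 5 genes with the most regions of both factors, and 2 promoters per class. Some members of these lists are not reported here. Other genes named as examples, the distances between midpoints and the split of C/EBPα-alone genes by HNF4α at other stages were chosen after the values were seen. Members, lists and classes were chosen with earlier results of these data known. Nothing says that replicates were separate animals, so p-values measure the spread between these samples, which may be technical. Alternatives were other overlaps, windows, normalizations and filters, a replicate block and leaving out each replicate.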

Additional observations from a re-analysis of the deposited data

How the results depend on the processing

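With a peak of either replicate there were 111947 C/EBPα and 74904 HNF4α regions, 12960 with both, 98693 with C/EBPα alone and 61769 with HNF4α alone, shared at 11.8% and 17.5%, with 3932, 2164 and 1675 genes with both, HNF4α alone and separate regions, and 131 C/EBPα-alone and 7 HNF4α-alone genes lower in the HNF4α knockout. Peaks of at least 1 kb left 211 and 41 regions, 18, 189 and 21 by class, 48.8% of HNF4α regions shared, 23, 66, 0 and 0 genes with both, C/EBPα alone, HNF4α alone and separate regions, and 0 and 0 (both) and 19 and 12 (C/EBPα alone) genes lower in the C/EBPα and HNF4α knockouts. HNF4α regions with an HNF4α peak at another stage, chosen after seeing the data, numbered 8750, of which 66.7% were shared and 2911 were alone, with 463 genes. An overlap of 50% shared 34.5% of the HNF4α regions. A TSS window of 1 kb gave 794, 6459, 494 and 134 genes with both, C/EBPα alone, HNF4α alone and separate regions, with 109 and 139 (both) and 10 and 23 (HNF4α alone) lower in the C/EBPα and HNF4α knockouts. A window of 10 kb gave 3089, 1370 and 1230 genes with both, HNF4α alone and separate regions. The cause was not tested for any of these beyond the change in regions or genes used.

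Pairing the lists by replicate number, as a replicate block, gave 108853 and 53278 regions for list 1 (10544, 98044 and 42638 by class, 20.0% of HNF4α regions shared), and 41199 HNF4α regions for list 2 (33434 alone, 18.8% shared). In the RNA the numbers did not pair the libraries, with correlations of deviations between −0.231 and 0.19 for libraries with the same number. The replicate block called 345 lower and 141 higher in the HNF4α knockout, 157 lower and 131 higher in the C/EBPα against the HNF4α knockout, and 116 C/EBPα-alone and 7 HNF4α-alone genes lower in the HNF4α knockout. Scaling to library totals, which moved the median log2 change of all genes to 0.527 in the C/EBPα knockout, called 324 lower and 474 higher there, 167 lower and 623 higher between the knockouts, and 140 C/EBPα-alone genes lower. With no filter on low values 202 genes were lower between the knockouts. WT replicate 3 and C/EBPα knockout replicate 1 deviated together (r = 0.491). Without both, chosen after seeing the data, the counts lower and higher were 188 and 28 in the C/EBPα knockout, 276 and 71 in the HNF4α knockout and 76 and 62 between them, with 77 and 130 (both), 83 and 90 (C/EBPα alone) and 0 and 7 (HNF4α alone) genes lower in the C/EBPα and HNF4α knockouts.

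Leaving out 1 replicate gave 65021 to 108853 C/EBPα and 18359 to 53278 HNF4α regions, 6014 to 9158 with both, 55773 to 102028 and 11773 to 44002 alone, 6.27% to 14.2% and 17.4% to 35.9% shared, and 1951 to 2834, 9487 to 15300, 612 to 2242 and 641 to 1263 genes with both, C/EBPα alone, HNF4α alone and separate regions. Genes lower and higher were 255 to 664 and 56 to 140 in the C/EBPα knockout, 213 to 794 and 25 to 578 in the HNF4α knockout, and 36 to 563 and 52 to 319 between them. Genes lower by class in the C/EBPα and HNF4α knockouts were 104 to 253 and 101 to 296 (both), 116 to 283 and 67 to 319 (C/EBPα alone), and 1 to 14 and 5 to 23 (HNF4α alone). Class results were compared as counts, a choice made after percents had been tried, under which more of them had moved by over the set limit. As percents, and over the settings with at least 100 tested genes in a class (a limit also set after seeing the data), genes with both factors were lower 3.45 to 5.95 times as often as all genes in the C/EBPα knockout and 3.69 to 6.93 times in the HNF4α knockout. For C/EBPα alone these ratios were 0.669 to 1.5 and 0.511 to 1.26, and for HNF4α alone 0 to 0.981 and 0.337 to 2.04. With peaks of at least 1 kb the order of the classes turned, at 0 of 9 genes with both factors and 19 of 51 with C/EBPα alone lower in the C/EBPα knockout. None of the log2 changes of the named pathway genes changed sign in the settings run. The split of all genes turned to more higher than lower with scaling to library totals, above, and between the knockouts also in limma without a trend (237 lower, 242 higher) and with quantile normalization (300 lower, 305 higher). The lists give no depth, which limits what absence of a peak can show.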
